A study of Homo sapiens with 4 samples.

Results

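The solute carrier transporters are the membrane proteins whose symbols begin with SLC, a family number and the letter A. Here they were the genes with protein-coding transcripts, such a symbol and a summed level of at least 1 FPKM in at least 2 of the 4 samples, where FPKM is fragments per kilobase of transcript, scaled to the number of mapped fragments. SLC2A1, SLC2A3, SLC16A1, SLC16A3, SLC25A1, SLC25A11 and SLC7A11 were left out by the same rule. Of 163 solute carrier symbols with a protein-coding transcript, 150 met the level, and these 150 were among 13036 genes listed in the deposited files and 11657 genes tested.

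RNA was sequenced from HCCLM3, an established human hepatocellular carcinoma cell line. The 2 shCtrl samples carried a control short hairpin RNA, and the 2 shKIAA1429 samples carried a hairpin against KIAA1429, both delivered by lentivirus into the same line, which received no other agent according to the labels. KIAA1429, now named VIRMA, is a subunit of the complex that methylates adenosines in mRNA. The study's purpose was to find genes whose mRNA level depends on KIAA1429 in liver cancer cells. The labels do not say whether the 2 samples of a group came from separate cultures, so the p-values measure the spread between these samples, which may be technical.

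Solute carriers move amino acids, sugars, ions, vitamins and nucleotides across membranes, mostly by coupling the movement of one solute to a gradient of another. Most members of the SLC25 family sit in the inner mitochondrial membrane and exchange nucleotides, phosphate and metabolites with the cytosol. In liver, members of these families take up bile acids, fatty acids and organic ions, and in tumour cells the amino acid exchangers SLC1A5 and SLC7A5 with its chaperone SLC3A2 are known for high levels.

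The targeted gene was measured first. VIRMA was at 9.37 and 14.1 FPKM in the shCtrl samples and at 6.90 and 8.52 FPKM in the shKIAA1429 samples, so both shKIAA1429 samples were below both shCtrl samples. Its log2 fold change was -0.53 with an SE of 0.24, and its adjusted p was 0.917 (limma, Benjamini-Hochberg over 11657 genes). The difference in the targeted transcript did not pass the test. Leaving out shCtrl replicate 2 gave -0.26, and leaving out shCtrl replicate 1 gave -0.80. The summed FPKM per library ran from 370300 to 390200, and read counts, and with them the sequencing depth, were not analysed here. Of 9 hepatocyte markers, only SERPINA1 was listed, at 3.34 to 5.63 FPKM, while KRT8 and KRT18, the keratins among 3 epithelial markers and the only ones listed, were at 970.7 to 1176 FPKM. Of 5 fibroblast markers, COL3A1 was at 55.8 to 63.6 FPKM, COL1A1 and PDGFRB were between 3.54 and 6.76 FPKM, and DCN was at or under 1.06 FPKM. Of 4 leukocyte markers only CD68 was listed, at 44.1 to 52.3 FPKM, and none of 4 endothelial markers was listed. Few defining markers of hepatocytes were thus found among the listed transcripts, and the samples are called HCCLM3 cells here. In bulk RNA a lower level in fewer cells and in every cell cannot be told apart.

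To describe which transporters HCCLM3 cells expressed, the transcripts of each gene were summed and the members were ordered by their mean over the 4 samples. The 150 members together took 0.811% and 0.785% of the summed FPKM in the shCtrl samples and 0.75% and 0.762% in the shKIAA1429 samples. Both shKIAA1429 shares were lower, and the exact two-sided permutation test gave p = 0.333, the smallest that 2 samples against 2 allow. The members' own FPKM summed to 3002 and 2939 in shCtrl against 2927 and 2912 in shKIAA1429. The total over all listed transcripts was 370300 and 374300 FPKM in shCtrl against 390200 and 382000 FPKM in shKIAA1429. The lower shares thus went with a higher total as well as with a slightly lower sum of the members. The distribution was uneven: the 10 highest members held 52.6% to 54.5% of the members' FPKM in each library, 7 members exceeded 100 FPKM and 60 were below 5 FPKM. The median member was at 6.73 FPKM, against 7.76 FPKM over all genes tested.

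The order was headed by SLC1A5, a sodium-dependent glutamine and neutral amino acid exchanger, at 178.1 to 292.2 FPKM, followed by SLC25A5 at 181.7 to 275.6 FPKM, SLC25A6 at 187.4 to 233.4 FPKM and SLC7A5 at 184.5 to 211.3 FPKM. The ranges of these 4 genes overlapped, so their order among themselves was within the spread between samples. SLC18A3 followed at 146.4 to 208.7 FPKM and SLC25A3 at 146.8 to 160.4 FPKM. Below SLC25A3 the ranges separated from SLC3A2, which was at 90.7 to 125.9 FPKM. They separated again below SLC38A2, at 78.0 to 91.8 FPKM, from SLC39A7 at 46.6 to 63.1 FPKM. FPKM is scaled by transcript length, so the levels were set side by side between genes. How values were divided among transcripts and whether counting used strand are not given. The order therefore describes the deposited values only.

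**Figure D1:**
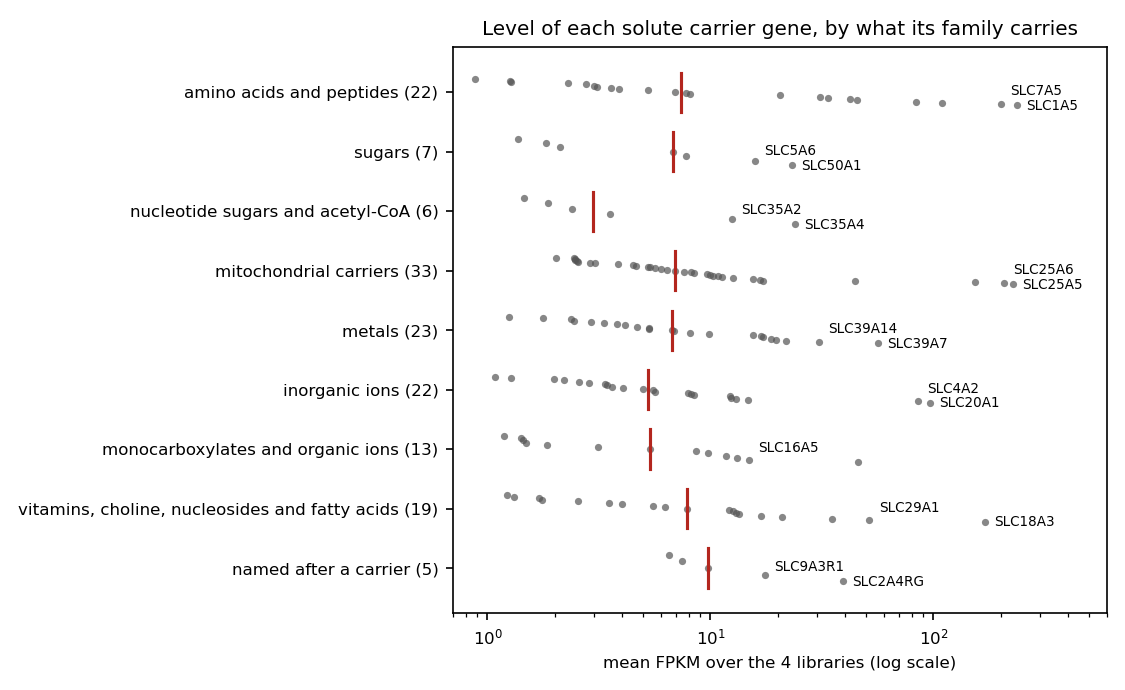
Each point is 1 solute carrier gene placed at its mean FPKM over the 4 libraries (log scale), in rows by what its family carries with the number of genes in parentheses; the red bar is the median of the row and up to 2 of the highest genes are named. Most genes lie below 20 FPKM, and the genes above 100 FPKM belong to the amino acid, mitochondrial and choline rows.

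To compare the groups, log2(FPKM + 1) of each gene was fitted with limma over the 4 samples. None of the 150 members passed both thresholds, a log2 fold change beyond 1 in either direction with an adjusted p below 0.05, and neither did any of the 11657 genes (0.0%). At an unadjusted p under 0.05 there were 10 members, 8 lower and 2 higher in shKIAA1429, or 6.67%, 5.33% and 1.33% of the members in all and in each direction. The background over all genes was 5.63%, of which 2.65% were lower and 2.98% higher. The smallest adjusted p among the members was 0.568, for SLC27A2. A fold change over 1 on the log2 scale was reached by 1 member, SLC6A6, against 1.07% of all genes.

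The members were centred near 0. Their median log2 fold change was -0.02, beside -0.01 over all genes, with 67 members higher and 83 lower. Over all genes tested, 5612 were higher and 6045 lower. For 90 members, 60.0%, the group means differed by less than 0.2 on the log2 scale, as they did for 64.7% of all genes. The groups did not overlap, with both shKIAA1429 samples lower, for 34 members, or 22.7%, against 16.7% of all genes. They did not overlap in the higher direction for 24 members, or 16%, against 16.9%. In 35 members, 23.3%, the difference between group means exceeded the larger of the 2 differences between replicates, as it did in 22.1% of all genes. The shares in the lower direction were thus above those of all genes and those in the higher direction below, by amounts that were not tested, and no member passed the thresholds.

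**Figure D2:**
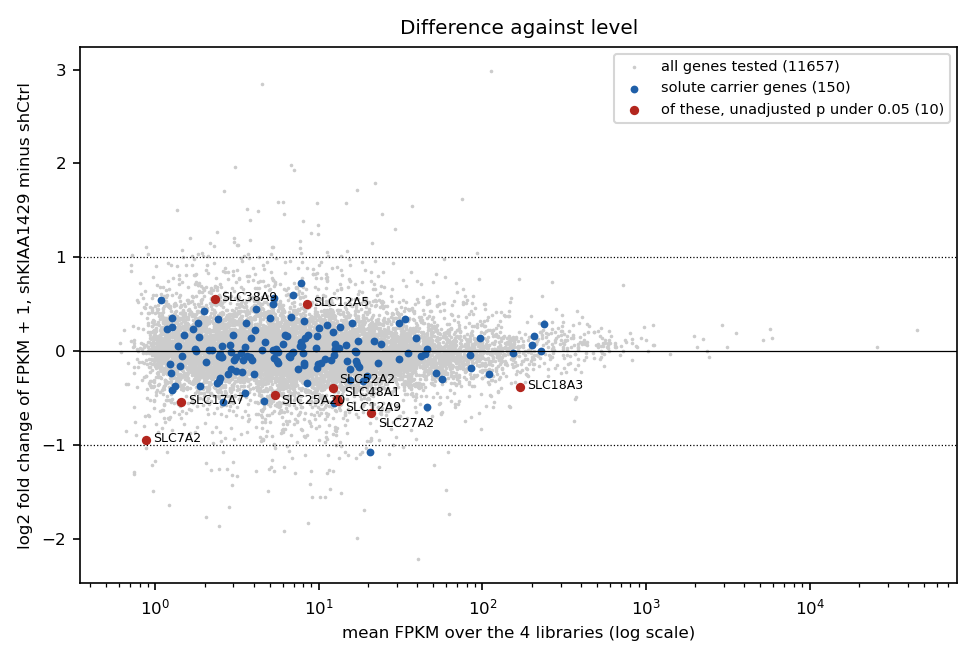
Each point is a gene, with its mean FPKM over the 4 libraries on the x axis (log scale) and the log2 fold change of FPKM + 1, shKIAA1429 minus shCtrl, on the y axis; grey points are the 11657 genes tested, blue points the 150 solute carrier genes and red points the 10 of them at an unadjusted p under 0.05. Solute carrier genes lie within the cloud of all genes, and only SLC6A6 lies beyond 1 on the log2 scale.

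The carriers of amino acids and peptides (22 genes) summed to 909.6 and 758.0 FPKM in shCtrl against 917.2 and 830.1 FPKM in shKIAA1429. In this class 13 genes were higher and 9 lower, 0 passed the thresholds, and the median log2 fold change was 0.05. SLC1A5 (chr19:47278140-47291851, minus strand) had 248.2 and 178.1 FPKM in shCtrl against 292.2 and 226.4 FPKM in shKIAA1429. The groups overlapped, the log2 fold change was 0.29 with an SE of 0.22, and the adjusted p was 0.969. Leaving out 1 library gave 0.05 (without shCtrl replicate 2) to 0.53 (without shCtrl replicate 1). SLC7A5, the light chain that exchanges large neutral amino acids, was at 209.2 and 184.5 FPKM in shCtrl against 211.3 and 201.4 FPKM in shKIAA1429, and its groups overlapped too. SLC3A2, the heavy chain that brings SLC7A5 to the plasma membrane, was at 125.9 and 110.8 FPKM in shCtrl against 110.1 and 90.7 FPKM in shKIAA1429. Its groups were only narrowly separated, and the adjusted p was 0.954.

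Some other amino acid carriers showed larger differences that rested on 1 library. SLC6A6, the taurine transporter (chr3:14444076-14530857, plus strand), had 23.2 and 29.5 FPKM in shCtrl against 5.95 and 23.02 FPKM in shKIAA1429. The low value was that of shKIAA1429 replicate 1 alone. The log2 fold change was -1.07 with an SE of 0.60 and an adjusted p of 0.945, and without that library it was -0.18. SLC1A4, an alanine, serine and cysteine transporter, was at 4.90 and 5.63 FPKM in shCtrl against 5.78 and 14.8 FPKM in shKIAA1429, where replicate 2 stood apart. Its log2 fold change of 0.73 (SE 0.42, adjusted p 0.949) was 0.12 without that library. SLC6A9, a glycine transporter, was at 8.45 and 2.64 FPKM in shCtrl against 10.9 and 5.57 FPKM in shKIAA1429, with a larger difference between replicates than between groups.

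SLC38A10 and SLC36A1 were higher in both shKIAA1429 samples, and their differences too depended on 1 library. SLC38A10, an amino acid transporter of the SLC38 family, was at 34.4 and 25.03 FPKM in shCtrl against 40.8 and 34.8 FPKM in shKIAA1429, with a log2 fold change of 0.35 and an adjusted p of 0.949. Without shCtrl replicate 2 it was 0.13. SLC36A1, a proton-coupled amino acid transporter of lysosomes, was at 7.23 and 6.77 FPKM in shCtrl against 10.4 and 7.79 FPKM in shKIAA1429, with a log2 fold change of 0.33 and an adjusted p of 0.949. Without shKIAA1429 replicate 1 it was 0.14. SLC38A9, the lysosomal arginine sensor, was at 1.35 and 2.04 FPKM in shCtrl against 3.12 and 2.72 FPKM in shKIAA1429 (adjusted p 0.884). All 3 genes were higher in both shKIAA1429 samples, and none passed the test. SLC7A2, a cationic amino acid transporter, had the lowest mean of all members, with 1.53 and 1.37 FPKM in shCtrl. In shKIAA1429 it was listed at 0 in replicate 1 and was at 0.608 FPKM in replicate 2. Its log2 fold change was -0.95 (SE 0.27, adjusted p 0.757, limma), and it ran from -1.29 to -0.61 without 1 library each.

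A list of 8 carriers known to be raised when amino acids are short (SLC1A4, SLC1A5, SLC3A2, SLC6A9, SLC7A1, SLC7A5, SLC38A2 and SLC43A1) had 6 genes higher and 2 lower in shKIAA1429. Its median log2 fold change was 0.18, beside -0.01 over all genes, and 0 of the 8 had an unadjusted p under 0.05. The lean depended on shCtrl replicate 2. When that library was left out, the signs of SLC7A5 (-0.02), SLC7A1 (-0.15), SLC43A1 (-0.06) and SLC6A9 (-0.09) turned. SLC1A5 (0.05) and SLC1A4 (0.81) stayed higher, and SLC3A2 (-0.33) and SLC38A2 (-0.15) stayed lower. The arginine and lysine transporter SLC7A1 was between 39.8 and 50.8 FPKM, and the glutamine and alanine transporter SLC38A2 was between 78.0 and 91.8 FPKM. Neither differed between groups by more than its replicates did.

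The mitochondrial carriers, taken by symbol as the 33 SLC25 genes, were the largest class by number. They summed to 796.0 and 865.3 FPKM in shCtrl against 822.2 and 874.6 FPKM in shKIAA1429. In this class 15 genes were higher and 18 lower, 1 had an unadjusted p under 0.05 and 0 passed the thresholds. Its median log2 fold change was -0.004, and the median absolute value was 0.10. Its level was dominated by the adenine nucleotide carriers SLC25A5 and SLC25A6, which exchange ADP for ATP, and by the phosphate carrier SLC25A3.

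SLC25A4, SLC25A5 and SLC25A6 encode the same exchange in different tissues. Their coding sequences are close to each other, so a stretch is shown to let the reader see how far reads could be told apart. The 120 coding bases from position 178 to 297, counted from the A of the start codon, are the in-frame window inside 1 exon with the most positions identical in all 3 genes, which were 95. They were read from GRCh37 at chr4:186065984-186066103 (plus strand), chrX:118603690-118603809 (plus strand) and chrX:1508435-1508554 (minus strand), and capitals mark the bases that differ from SLC25A5.
SLC25A4: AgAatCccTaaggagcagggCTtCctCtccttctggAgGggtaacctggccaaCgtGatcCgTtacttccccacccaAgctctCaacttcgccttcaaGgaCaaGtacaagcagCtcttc
SLC25A5: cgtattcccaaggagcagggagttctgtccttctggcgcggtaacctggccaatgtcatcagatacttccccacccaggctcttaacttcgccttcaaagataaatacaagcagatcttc
SLC25A6: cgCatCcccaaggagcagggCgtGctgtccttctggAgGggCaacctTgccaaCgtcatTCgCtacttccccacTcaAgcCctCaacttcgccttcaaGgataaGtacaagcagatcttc
In this window SLC25A4 differed from SLC25A5 at 20 bases and SLC25A6 at 18. Over the 894 coding bases without the stop codon, identity was 78.7% between SLC25A5 and SLC25A6, 77.2% between SLC25A4 and SLC25A5 and 77.9% between SLC25A4 and SLC25A6. The longest run without a difference was 29 bases, between SLC25A5 and SLC25A6.

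Among these 3 genes, SLC25A5 and SLC25A6 carried nearly the whole level. SLC25A5 was at 181.7 and 275.6 FPKM in shCtrl against 189.2 and 264.7 FPKM in shKIAA1429. In both groups replicate 2 was higher, the groups overlapped fully and the log2 fold change was -0.0002 with an SE of 0.27. SLC25A6, which lies in the pseudoautosomal region of chromosome X, was at 203.7 and 187.4 FPKM in shCtrl against 233.4 and 204.1 FPKM in shKIAA1429, narrowly separated (log2 fold change 0.16, SE 0.12, adjusted p 0.969). With protein-coding transcripts alone its log2 fold change was 0.04, and without shKIAA1429 replicate 1 it was 0.06. SLC25A4, the form of heart and muscle, was at 2.04 and 2.27 FPKM in shCtrl against 1.87 and 1.97 FPKM in shKIAA1429, or 0.419% to 0.527% of the summed level of the 3 genes. SLC25A5 held 44.6% to 59.2% of that sum, and more than SLC25A6 in both libraries numbered 2 but less in both numbered 1.

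SLC25A3 is known for a pair of mutually exclusive coding exons, 3A and 3B, of which 3A is used in heart and muscle. Both are printed because they separate the listed transcripts: of the 8 listed, 2 contain exon 3A and 6 contain exon 3B. Exon 3A is 125 bases at chr12:98989211-98989335 and exon 3B is 122 bases at chr12:98989505-98989626, both on the plus strand of GRCh37. Capitals mark bases that differ when the exons are laid over each other without gaps, 3B being shifted by 3 bases.
Exon 3A: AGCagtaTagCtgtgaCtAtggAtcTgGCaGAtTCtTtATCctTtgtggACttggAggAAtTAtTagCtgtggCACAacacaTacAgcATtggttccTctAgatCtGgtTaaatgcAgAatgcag
Exon 3B: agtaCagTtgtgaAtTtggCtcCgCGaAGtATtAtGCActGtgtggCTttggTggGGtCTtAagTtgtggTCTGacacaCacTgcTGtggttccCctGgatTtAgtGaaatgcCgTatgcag
Of the 122 bases laid over each other, 81 were identical (66.4%).

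The summed gene level of SLC25A3 hardly varied, with 160.4 and 147.1 FPKM in shCtrl against 157.3 and 146.8 FPKM in shKIAA1429 (log2 fold change -0.02, SE 0.12, adjusted p 0.999). Transcripts with exon 3B held most of it, at 136.3 and 135.2 FPKM in shCtrl against 135.4 and 127.1 FPKM in shKIAA1429. Transcripts with exon 3A were at 24.1 and 11.9 FPKM in shCtrl against 21.9 and 19.7 FPKM in shKIAA1429, a share of 8.09% to 15.01%. The lowest share was in shCtrl replicate 2, and the groups overlapped.

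Of the remaining mitochondrial carriers, SLC25A20, which brings acylcarnitines into the matrix for fatty acid oxidation, was the one at an unadjusted p under 0.05. It was at 5.70 and 7.08 FPKM in shCtrl against 4.50 and 4.13 FPKM in shKIAA1429. Both shKIAA1429 samples were lower, with a log2 fold change of -0.47 (SE 0.17) and an adjusted p of 0.884. SLC25A37, the mitochondrial iron importer mitoferrin-1, was at 9.32 and 10.8 FPKM in shCtrl against 10.9 and 14.1 FPKM in shKIAA1429, narrowly separated (adjusted p 0.959).

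**Figure D3:**
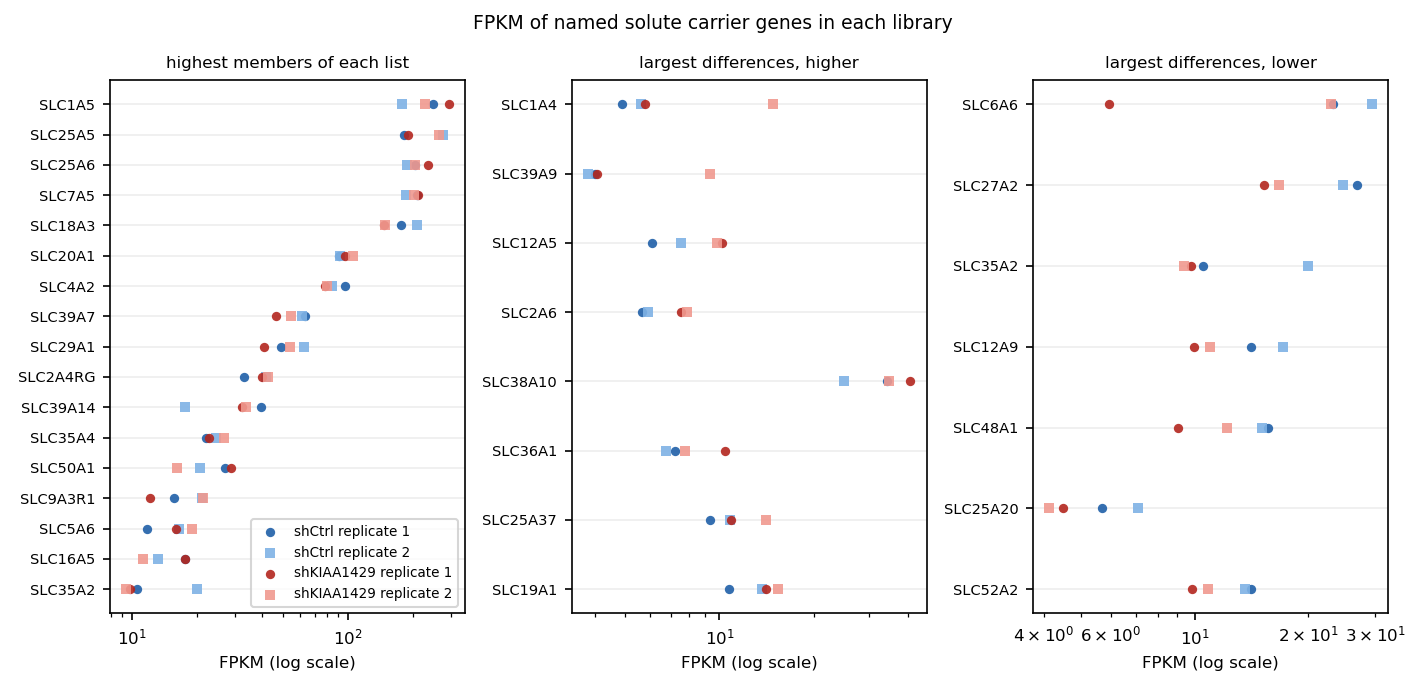
FPKM (log scale) of named solute carrier genes in each of the 4 libraries, blue for shCtrl and red for shKIAA1429, circles for replicate 1 and squares for replicate 2; the left panel holds the highest genes of each class, and the other panels the largest log2 fold changes in each direction among genes with a mean of at least 5 FPKM and no overlap between groups. For SLC6A6, SLC1A4, SLC39A9 and SLC35A2 a single library lies far from the other 3, whereas the 4 values of SLC27A2, SLC12A9, SLC2A6 and SLC12A5 lie in pairs by group.

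The carriers of vitamins, choline, nucleosides and fatty acids (19 genes) had 13 genes lower and 6 higher, and held 4 of the 10 members at an unadjusted p under 0.05. The class summed to 397.8 and 436.1 FPKM in shCtrl against 338.5 and 350.7 FPKM in shKIAA1429, without overlap, and its median log2 fold change was -0.10, beside -0.01 over all genes. A large part of the sum was SLC18A3, an acetylcholine carrier placed here with the amines. Its means were 192.0 FPKM in shCtrl and 147.0 FPKM in shKIAA1429, within class means of 417.0 and 344.6 FPKM. The class held 7 genes with both shKIAA1429 samples lower and 2 with both higher, where all genes gave 16.7% and 16.9%, and the unadjusted p was under 0.05 in 5.63% of all genes. No gene of the class passed the test.

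SLC27A2, a very long chain acyl-CoA synthetase and fatty acid transporter of liver and kidney (chr15:50474393-50528592, plus strand), had the smallest p of all members. It was at 26.8 and 24.6 FPKM in shCtrl against 15.2 and 16.7 FPKM in shKIAA1429. The gap between the groups was larger than either difference between replicates, the log2 fold change was -0.66 with an SE of 0.14, and the adjusted p was 0.568. Leaving out any 1 library gave -0.72 to -0.59. Its main transcript, SLC27A2-201, was at 24.4 and 19.1 FPKM in shCtrl against 13.01 and 12.9 FPKM in shKIAA1429. SLC27A2 is among 6 listed genes of a list of 16 carriers typical of hepatocytes, which divided into 3 higher and 3 lower.

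SLC18A3, which loads acetylcholine into synaptic vesicles and is known from cholinergic neurons, was the fifth member by level in these cells. Its single listed transcript (chr10:50818347-50820766, plus strand) had 175.3 and 208.7 FPKM in shCtrl against 146.4 and 147.5 FPKM in shKIAA1429. Both shKIAA1429 samples were lower, with a log2 fold change of -0.38 (SE 0.13) and an adjusted p of 0.875. The gene is a single exon that lies within the span of CHAT, the choline acetyltransferase gene, on the same strand, and it overlaps 0 of the annotated CHAT exons. CHAT was at 7.76 and 6.35 FPKM in shCtrl against 5.11 and 3.91 FPKM in shKIAA1429 (log2 fold change -0.55, SE 0.19, adjusted p 0.877), so both genes of the locus were lower in both shKIAA1429 samples. In all, 29 members overlap another listed gene, 7 of them on the same strand, and whether the counting used strand is not stated.

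SLC48A1, a heme transporter of endosomes, was at 15.7 and 15.1 FPKM in shCtrl against 9.03 and 12.2 FPKM in shKIAA1429. SLC52A2, a riboflavin transporter, was at 14.1 and 13.6 FPKM in shCtrl against 9.85 and 10.8 FPKM in shKIAA1429. Both were lower in both shKIAA1429 samples, with log2 fold changes of -0.51 and -0.39 and an adjusted p of 0.884 each. Without shKIAA1429 replicate 1 that of SLC48A1 was -0.31. SLC19A1, the reduced folate carrier, was at 10.7 and 13.7 FPKM in shCtrl against 14.1 and 15.4 FPKM in shKIAA1429, also narrowly separated. SLC29A1, the equilibrative nucleoside transporter, was at 49.1 and 62.7 FPKM in shCtrl against 40.8 and 54.0 FPKM in shKIAA1429, and its groups overlapped.

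The metal carriers (23 genes) divided into 17 lower and 6 higher genes, with a median log2 fold change of -0.07, and 0 genes at an unadjusted p under 0.05. The SLC39 proteins bring zinc into the cytosol and the SLC30 proteins take it out. Of the 10 SLC39 genes 8 were lower and 2 higher, and all 7 SLC30 genes were lower, most by little. The signs of SLC30A1 (0.22), SLC30A6 (0.31) and SLC30A9 (0.006) turned without shCtrl replicate 1. SLC30A3 (-0.13), SLC30A4 (-0.05), SLC30A5 (-0.14) and SLC30A7 (-0.15) stayed lower without it. The sign of SLC30A7 turned in other runs, to 0.022 without shCtrl replicate 2 and to 0.018 without shKIAA1429 replicate 1. Without shCtrl replicate 2 the median of the class was -0.17, and without shCtrl replicate 1 it was -0.05. SLC39A7, which releases zinc from the endoplasmic reticulum, was the highest of the class. It was at 63.1 and 61.0 FPKM in shCtrl against 46.6 and 54.2 FPKM in shKIAA1429. Both shKIAA1429 samples were lower (log2 fold change -0.30, SE 0.14, adjusted p 0.917, and -0.19 without shKIAA1429 replicate 1), but with protein-coding transcripts alone the sign turned, to 0.09. The transcript SLC39A7-204, which is not protein coding, was at 30.9 FPKM in shCtrl replicate 1 and at 3.79 to 6.32 FPKM elsewhere. SLC39A11, a zinc transporter, was at 20.9 FPKM in both shCtrl samples and at 17.5 and 15.6 FPKM in shKIAA1429, with an adjusted p of 0.902. This gene was named after its values were seen.

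SLC39A14, a zinc and iron importer of hepatocytes, was at 39.4 and 17.6 FPKM in shCtrl against 32.2 and 33.6 FPKM in shKIAA1429. Here shCtrl replicate 2 stood apart, and the log2 fold change of 0.31 turned to -0.25 without it. SLC39A9 was at 3.997 and 3.79 FPKM in shCtrl against 4.07 and 9.36 FPKM in shKIAA1429, and without shKIAA1429 replicate 2 its log2 fold change of 0.57 (SE 0.36, adjusted p 0.954) was 0.05. Its excess in that library came from SLC39A9-202, at 0.467 and 0.0145 FPKM in shCtrl against 0.538 and 6.15 FPKM in shKIAA1429, while SLC39A9-201 was between 3.21 and 3.78 FPKM in all 4. The coding exon below, 198 bases at chr14:69908786-69908983 on the plus strand of GRCh37, is the part that only SLC39A9-202 contains among the 2 listed transcripts and shows what distinguishes them.
SLC39A9-202 exon: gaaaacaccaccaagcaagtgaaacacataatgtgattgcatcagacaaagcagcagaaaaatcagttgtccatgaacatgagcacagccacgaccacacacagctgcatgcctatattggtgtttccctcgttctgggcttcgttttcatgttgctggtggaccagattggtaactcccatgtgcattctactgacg

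The carriers of inorganic ions (22 genes) were evenly divided, with 11 higher and 11 lower, and a median log2 fold change of -0.001. SLC20A1, a sodium-phosphate cotransporter, was at 90.6 and 92.1 FPKM in shCtrl against 96.8 and 105.6 FPKM in shKIAA1429. SLC4A2, the anion exchanger of chloride and bicarbonate, was at 96.3 and 84.3 FPKM in shCtrl against 78.6 and 80.2 FPKM in shKIAA1429. These 2 highest genes of the class were separated between groups in opposite directions, with adjusted p of 0.973 and 0.968. SLC12A9, of the cation-chloride cotransporter family, was at 14.1 and 17.1 FPKM in shCtrl against 9.96 and 10.98 FPKM in shKIAA1429 (log2 fold change -0.53, SE 0.16, adjusted p 0.806). SLC12A5, the potassium-chloride cotransporter of neurons, was at 6.10 and 7.55 FPKM in shCtrl against 10.2 and 9.85 FPKM in shKIAA1429 (log2 fold change 0.50, SE 0.16, adjusted p 0.838). For both, the 4 values fell into pairs by group and neither passed the test. The listed SLC12A5 transcripts cover only chr20:44650338-44652220.

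The carriers of monocarboxylates and organic ions (13 genes) had 6 genes higher and 7 lower. SLC16A5, a monocarboxylate carrier, was at 17.7 and 13.2 FPKM in shCtrl against 17.6 and 11.2 FPKM in shKIAA1429, with overlapping groups. SLC17A7, the vesicular glutamate transporter, was at 1.86 and 1.91 FPKM in shCtrl against 1.26 and 0.740 FPKM in shKIAA1429 (adjusted p 0.884).

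The sugar carriers (7 genes) had 6 genes higher and 1 lower, with a median log2 fold change of 0.10 and 0 genes at an unadjusted p under 0.05. SLC2A6, a lysosomal glucose transporter family member, was at 5.66 and 5.93 FPKM in shCtrl against 7.56 and 7.90 FPKM in shKIAA1429. The gap between its groups was larger than either difference between replicates, and the log2 fold change was 0.36 (SE 0.14, adjusted p 0.887). SLC50A1, a sugar efflux carrier, was at 26.9 and 20.6 FPKM in shCtrl against 28.7 and 16.1 FPKM in shKIAA1429, with overlapping groups. SLC5A6, which belongs to the sodium-glucose cotransporter family and carries biotin and pantothenate, was at 11.8 and 16.6 FPKM in shCtrl against 15.95 and 19.04 FPKM in shKIAA1429, also with overlap. The glucose transporters SLC2A1 and SLC2A3 were outside the rule.

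The nucleotide sugar and acetyl-CoA carriers (6 genes) had 3 genes higher and 3 lower. SLC35A4 was the highest, at 22.01 and 24.5 FPKM in shCtrl against 22.8 and 26.6 FPKM in shKIAA1429. SLC35A2, the UDP-galactose transporter of the Golgi, was at 10.55 and 19.99 FPKM in shCtrl against 9.82 and 9.39 FPKM in shKIAA1429. Its high value was that of shCtrl replicate 2, and without it the log2 fold change of -0.55 (SE 0.31, adjusted p 0.945) was -0.12.

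The rule's pattern also takes 5 symbols of genes that are not carriers, and 145 members are carriers proper. SLC2A4RG, a DNA-binding regulator of the SLC2A4 gene, was at 33.1 and 41.9 FPKM in shCtrl against 40.2 and 42.4 FPKM in shKIAA1429. SLC9A3R1, a scaffold protein that binds the sodium-proton exchanger SLC9A3, was at 15.7 and 21.2 FPKM in shCtrl against 12.1 and 21.4 FPKM in shKIAA1429. The groups overlapped for both, and 0 of the 5 genes (also SLC9A3R2, SLC4A1AP and SLC7A6OS) had an unadjusted p under 0.05.

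**Figure D4:**
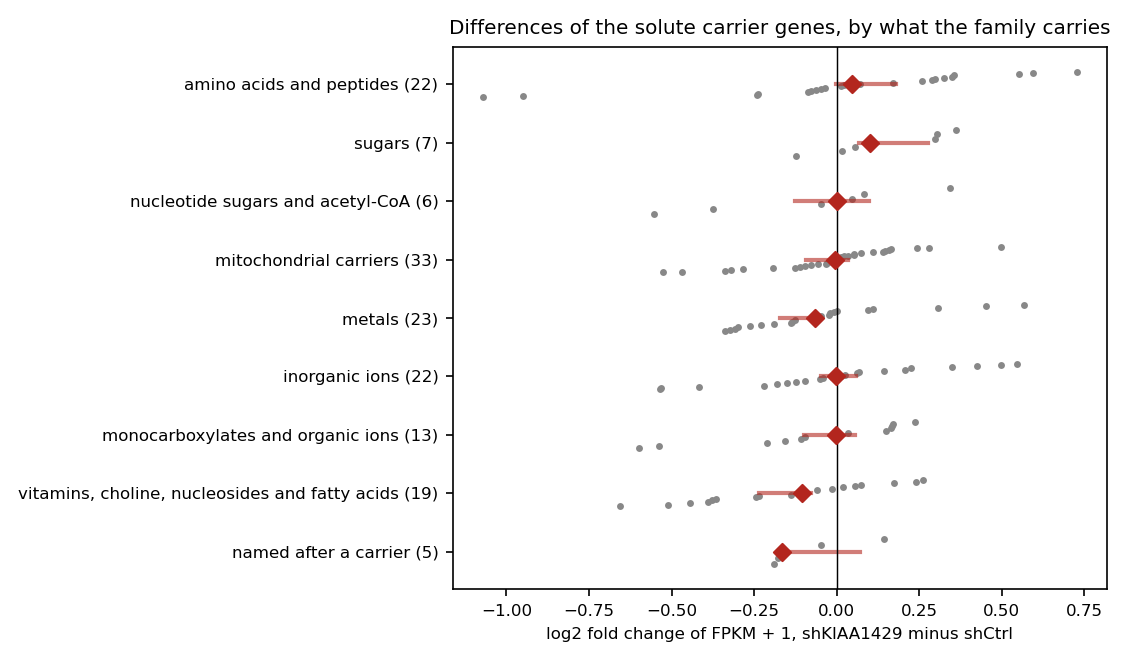
Each grey point is the log2 fold change of FPKM + 1, shKIAA1429 minus shCtrl, of 1 solute carrier gene, in rows by what its family carries with the number of genes in parentheses; the red diamond is the median of the row and the red line the range of that median when any 1 library is left out. The medians lie between -0.17 and 0.10, and the lines of 6 of the 9 rows cross 0.

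To learn whether the gene sums hid differences between transcripts, each listed transcript was examined. The members had 472 listed transcripts, 397 of them protein coding. The number per gene ran from 1, in 39 genes, to 16, in SLC3A2. In the same limma fit over 24996 single transcripts, 0 of the members' 337 tested transcripts and 0.0% of all passed both thresholds, with a smallest adjusted p of 0.253. At an unadjusted p under 0.05 there were 28 of the 337, or 8.31%, against 6.28% of all transcripts.

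Transcript values varied much more between libraries than gene sums. Of 140 member transcripts that reached 5 FPKM in a library, 37 (26.4%, in 26 genes) were at least 5 times higher in their highest than in their lowest library, against 20.7% of all transcripts. None of the 98 member genes that reached 5 FPKM as a sum did so. The transcripts named below were chosen after their values were seen.

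For SLC10A3, of the bile acid transporter family, the transcripts went with the replicate number. SLC10A3-204 was at 3.71 FPKM in shCtrl replicate 1 and at 4.34 FPKM in shKIAA1429 replicate 1, and was listed at 0 in both libraries numbered 2. SLC10A3-202 was at 0.484 and 6.09 FPKM in shCtrl against 0.604 and 8.24 FPKM in shKIAA1429. The gene sum was also higher in both libraries numbered 2, at 11.3 and 12.4 FPKM, than in those numbered 1, at 4.82 and 5.74 FPKM. The transcripts differ in the coding sequence by 87 bases (chrX:153716836-153716922), 29 codons that SLC10A3-204 keeps and SLC10A3-202 splices out. They are shown because they begin with GT and end with AG, the usual ends of an intron. The sequence is chrX:153716821-153716937 on the minus strand of GRCh37, and capitals mark the 87 bases between 15 bases of shared coding sequence on each side.
SLC10A3: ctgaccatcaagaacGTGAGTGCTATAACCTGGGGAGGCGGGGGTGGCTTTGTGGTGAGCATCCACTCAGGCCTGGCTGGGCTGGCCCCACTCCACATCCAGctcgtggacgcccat

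SLC39A14-203 was at 31.1 and 2.04 FPKM in shCtrl against 26.9 and 25.6 FPKM in shKIAA1429, while SLC39A14-204, which has another exon in place of 1 of its 9, was at 0.804 and 9.52 FPKM in shCtrl against 2.11 and 0.898 FPKM in shKIAA1429. The low gene sum in shCtrl replicate 2 thus went with an exchange of these transcripts. SLC6A6-210 was at 19.3 and 25.5 FPKM in shCtrl against 1.33 and 19.7 FPKM in shKIAA1429, and it made up the low sum of SLC6A6 in shKIAA1429 replicate 1. For SLC25A22, a mitochondrial glutamate carrier, shCtrl replicate 2 had 16.9 FPKM of SLC25A22-201 and 1.17 FPKM of SLC25A22-228, and the other 3 libraries had 1.06 to 1.74 and 11.1 to 14.7 FPKM. That pair has the same coding exons and differs in 1 exon each.

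In 2 genes an exchange of transcripts went with the group. Among all genes tested, the groups did not overlap for 16.7% in the lower and 16.9% in the higher direction. Such a share over single transcripts was not computed. SLC43A3-217 was at 3.07 and 6.92 FPKM in shCtrl against 0.284 and 0.336 FPKM in shKIAA1429, while SLC43A3-225 was at 1.65 and 2.70 FPKM in shCtrl against 6.95 and 10.6 FPKM in shKIAA1429. The adjusted p over all transcripts was 0.381 and 0.418 (limma). The sum of SLC43A3, a purine base carrier placed above with the amino acid carriers by its family number, was between 29.7 and 33.8 FPKM in all 4 libraries. SLC29A1-202 was at 18.2 and 22.2 FPKM in shCtrl against 3.62 and 10.9 FPKM in shKIAA1429, while SLC29A1-206, which has the same coding exons, was at 3.11 and 4.15 FPKM in shCtrl against 16.9 and 5.80 FPKM in shKIAA1429. Their adjusted p was 0.794 and 0.907. For SLC29A1-206 the higher level in shKIAA1429 was mostly that of replicate 1, at 16.9 FPKM against 5.80 FPKM in replicate 2. SLC25A6-203, a transcript that is not protein coding, was at 7.65 and 4.03 FPKM in shCtrl against 26.5 and 21.5 FPKM in shKIAA1429 (adjusted p 0.344), and the protein-coding SLC25A6-201 was between 180.6 and 204.0 FPKM. None of these passed the test, and how the deposited values were divided among transcripts of 1 gene is not given in the sources used here.

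**Figure D5:**
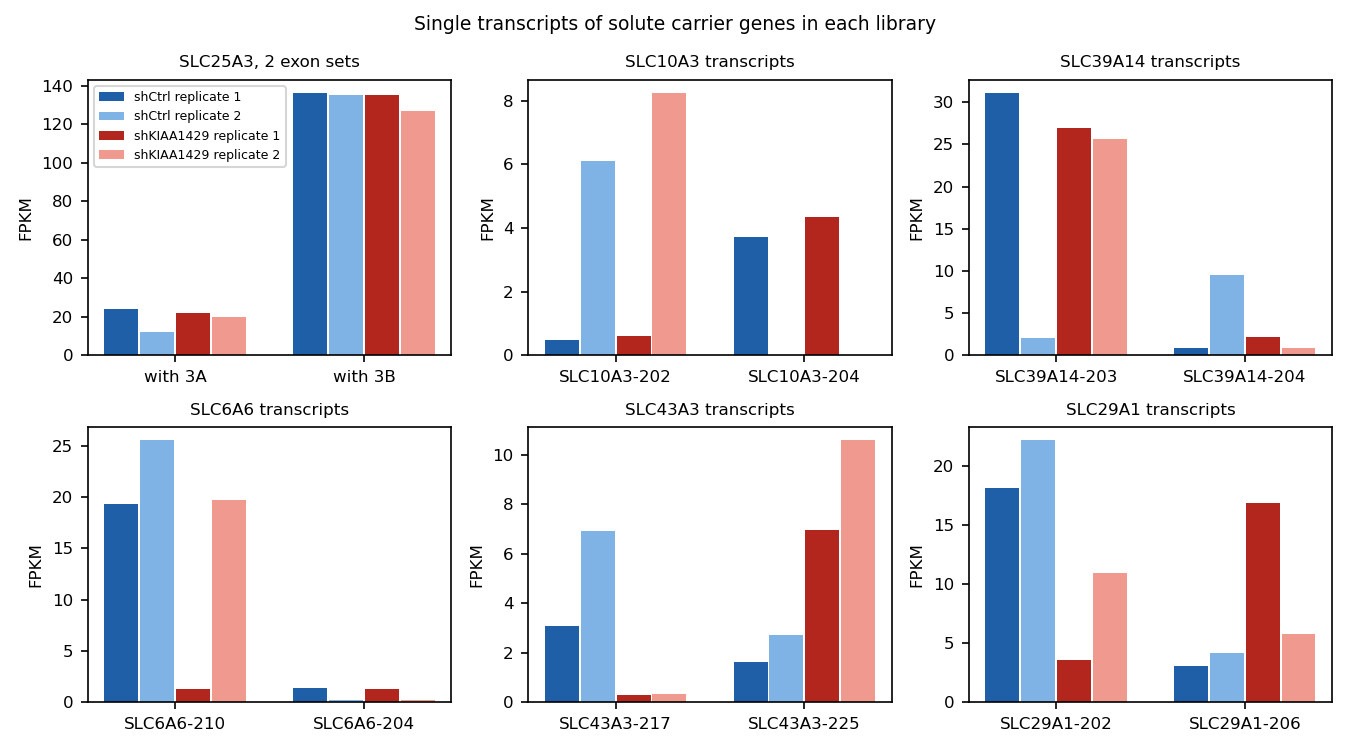
Bars give the FPKM of single transcripts (for SLC25A3, the sums of the transcripts with exon 3A and with exon 3B) in each library, dark and light blue for shCtrl replicates 1 and 2 and dark and light red for shKIAA1429 replicates 1 and 2. SLC10A3 transcripts alternate with the replicate number, SLC39A14 and SLC6A6 each have 1 deviating library, and the SLC43A3 and SLC29A1 pairs are ordered by group in opposite directions.

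At the edge of the level rule, the lowest members by their second highest library were SLC27A5, SLC10A7 and SLC30A3, with 1.22, 1.24 and 1.27 FPKM in protein-coding transcripts. Just outside were SLC40A1, the iron exporter ferroportin, with 0.962 FPKM, SLC16A14 with 0.884 FPKM and SLC45A4 with 0.807 FPKM. SLC27A5, the bile acyl-CoA synthetase of liver, was at 0.768 and 0.965 FPKM in shCtrl against 6.40 and 1.22 FPKM in shKIAA1429 in its protein-coding transcript. It thus met the level rule only through the shKIAA1429 samples. With its transcript that is not protein coding, its sums were 5.14 and 6.51 FPKM and 6.40 and 6.91 FPKM, and overlapped. The listed SLC27A5 transcripts cover only chr19:59009700-59010642. The 7 genes left out by the rule were at 3.24 to 97.7 FPKM, and 0 of them passed the thresholds.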

How the data were processed

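Total RNA of 4 HCCLM3 samples, 2 shCtrl and 2 shKIAA1429, was sequenced. The authors deposited FPKM per transcript, already normalised for transcript length and library size; the submitters' processing notes name Bowtie2 2.1.0 and hg19, and the tool that made the FPKM is not given in the sources used here. Depth is unknown, so no counting interval and no count test was possible. Here the FPKM of all listed transcripts of a gene were summed, and genes with at least 1 FPKM in at least 2 samples (11657) were fitted as log2(FPKM + 1) with limma 3.58.1 (trend, R 4.3.3) and Benjamini-Hochberg adjustment; the pseudocount understates fold changes of low genes. A call needed a log2 fold change beyond 1 in either direction and an adjusted p below 0.05. The fit was also run on simulated data whose spread was drawn from the fit itself, independently for each sample. That run cannot show how the fit handles samples that deviate together or a single deviating library. A test of 2 samples against 2 by exact permutation cannot go below p = 0.333. Named were the 2 highest genes of each class, the 8 largest log2 fold changes in each direction among genes with a mean of at least 5 FPKM whose groups did not overlap, the 3 adenine nucleotide carriers, VIRMA and the genes next to the level threshold; others were chosen after their values were seen. Some genes that these rules choose are not reported here. Members and lists were chosen with earlier results of these data known. Sequences were read from GRCh37 (hg19). Alternatives were another pseudocount, filter, scaling and transcript set, a replicate block and leaving out each library.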

Additional observations from a re-analysis of the deposited data

How the results depend on the processing

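No solute carrier gene passed both thresholds under any alternative that kept both. With an absolute log2 fold change over 1 alone there were 1 solute carrier gene and 125 of all genes, a looser criterion by construction. Leaving out 1 library gave 0 to 1 called genes among all genes, the 1 call arising without shCtrl replicate 1. The 10 solute carrier genes at an unadjusted p under 0.05 became 21 with the replicate number as a block and 5 to 9 without 1 library each, the 5 without shKIAA1429 replicate 2 and 6 without shKIAA1429 replicate 1, where fewer samples were fitted. In shares this was 6.67% of the members against 5.63% of all genes, 14% against 10.9% with the block, and 3.33% to 6.0% against 4.37% to 6.3% without 1 library each. Same-numbered samples deviated together (correlation 0.324 across genes), but with 2 pairs and no shared origin in the labels the numbers were not taken as pairs. The median log2 fold change of the sugar carriers was 0.1991 with at least 1 FPKM in every sample and 0.2031 with protein-coding transcripts alone. That of the monocarboxylate and organic ion carriers was -0.04933 with at least 1 FPKM in every sample, 0.02055 with median centring, 0.003922 with a pseudocount of 0.1 and 0.01264 with upper quartile scaling. The mean share of the summed FPKM was 0.7284% with protein-coding transcripts alone and 0.8602% without mitochondrial transcripts. The sign turned for SLC25A5 (0.02209 with median centring, 0.01726 with upper quartile scaling, 0.001408 with protein-coding transcripts alone), SLC39A7 (0.09369) and SLC50A1 (0.2031), the last pair with protein-coding transcripts alone. The cause was not tested for any of these.

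Without 1 library each, the median log2 fold change ran from -0.04532 to -0.008512 for all solute carriers, from -0.003316 to 0.1783 for amino acids and peptides, from 0.06632 to 0.2755 for sugars, from -0.1265 to 0.09653 for nucleotide sugars and acetyl-CoA. It ran from -0.09143 to 0.03538 for mitochondrial carriers, from -0.1707 to -0.04607 for metals, from -0.04734 to 0.0588 for inorganic ions, from -0.09937 to 0.05501 for monocarboxylates and organic ions. It ran from -0.2351 to -0.07639 for the vitamin and choline class and from -0.1663 to 0.07067 for the genes named after a carrier. Among the 37 genes chosen by the naming rules, the sign turned without 1 library for SLC16A5 (-0.4107 to 0.1955), SLC25A5 (-0.2994 to 0.2989), SLC2A4RG (-0.02161 to 0.3091) and SLC35A4 (-0.02599 to 0.189). It also turned for SLC39A14 (-0.2541 to 0.8659), SLC50A1 (-0.5188 to 0.2755), SLC7A5 (-0.01989 to 0.1604) and SLC9A3R1 (-0.5505 to 0.2199). The other 29 of these 37 genes kept their sign. Tools that need counts could not be used on FPKM.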

Other observations

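Outside the solute carriers defined above, 22 genes of the SLC35B to SLC35G and SLCO families were listed, of which 21 were tested. They divided into 8 higher and 13 lower in shKIAA1429, with a median log2 fold change of -0.08, beside -0.01 over all genes, and 0 passed the thresholds. The smallest adjusted p was 0.936 (limma).

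Of 12 gene symbols looked up for proteins that work with carriers, 7 were listed. BSG, the chaperone of monocarboxylate carriers, was at 190 and 211 FPKM in shCtrl against 188 and 176 FPKM in shKIAA1429. MPC2, a subunit of the mitochondrial pyruvate carrier, was at 38.5 and 40.8 FPKM in shCtrl against 22.4 and 36.5 FPKM in shKIAA1429, with an adjusted p of 0.945 (limma). None of the 7 passed the thresholds.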
